A study of Mus musculus with 8 samples.

Results

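Simple epithelial keratins are the intermediate filament genes of single-layered and glandular epithelia, and 6 of them, Krt7, Krt8, Krt18, Krt19, Krt20 and Krt23, were followed here along the mouse gut. They were chosen by name, as the rows KRT7, KRT8, KRT18, KRT19, KRT20 and KRT23 of a table of 18131 gene rows, and all 6 had a row. RNA of GFP+ cells, which the labels call enteroendocrine, was hybridised to Illumina bead arrays. The cells were FACS-purified from adult mice of 1 reporter genotype, Ngn3-GFP, whose GFP follows the gene Neurog3 (Ngn3), a transcription factor of endocrine progenitors. There were 3 arrays of gastric cells (pyloric or antral stomach), 3 of duodenal cells and 2 of colonic cells. No drug or other treatment is named for any group, but dissociation differed: all tissue was kept in 10 mM EDTA, the stomach for 2 h and then in Accutase (30 min), the duodenum and colon for 30 min and then in dispase (15 min). Segment and dissociation therefore cannot be told apart for gastric cells.

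Keratin filaments are built from obligate pairs of a type I (acidic) and a type II (basic) keratin, so that a cell needs members of both types. Krt8 (type II) and Krt18 (type I) are the primary pair of simple epithelia, and mice that lack Krt8 develop colitis. Krt7 is a second type II keratin, typical of ducts and glands. Krt19, a type I keratin with almost no tail domain, and Krt20, a type I keratin best known from the differentiated cells of intestinal villi and surface epithelium, add to the basic pair in the gut. Krt23 is a less studied type I keratin of glandular epithelia. In the GRCm38.p6 annotation Krt18 lies next to Krt8 on chromosome 15, at the edge of the type II cluster that also holds Krt7, while Krt19, Krt20 and Krt23 lie in the type I cluster on chromosome 11.

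The 6 genes had different patterns along the gut. Krt20 was low in gastric cells and high in duodenal and colonic cells, with a 16.2-fold difference between gastric and duodenal cells. Krt23 was high in gastric and duodenal cells and low in colonic cells, with a 19-fold difference between gastric and colonic cells. Krt19 was lowest in gastric and highest in colonic cells (3.76-fold), and Krt8 had the same order with a smaller difference (1.63-fold). Krt7 and Krt18 stayed within 1.22-fold and 1.13-fold between any pair of segments.

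**Figure D1:**
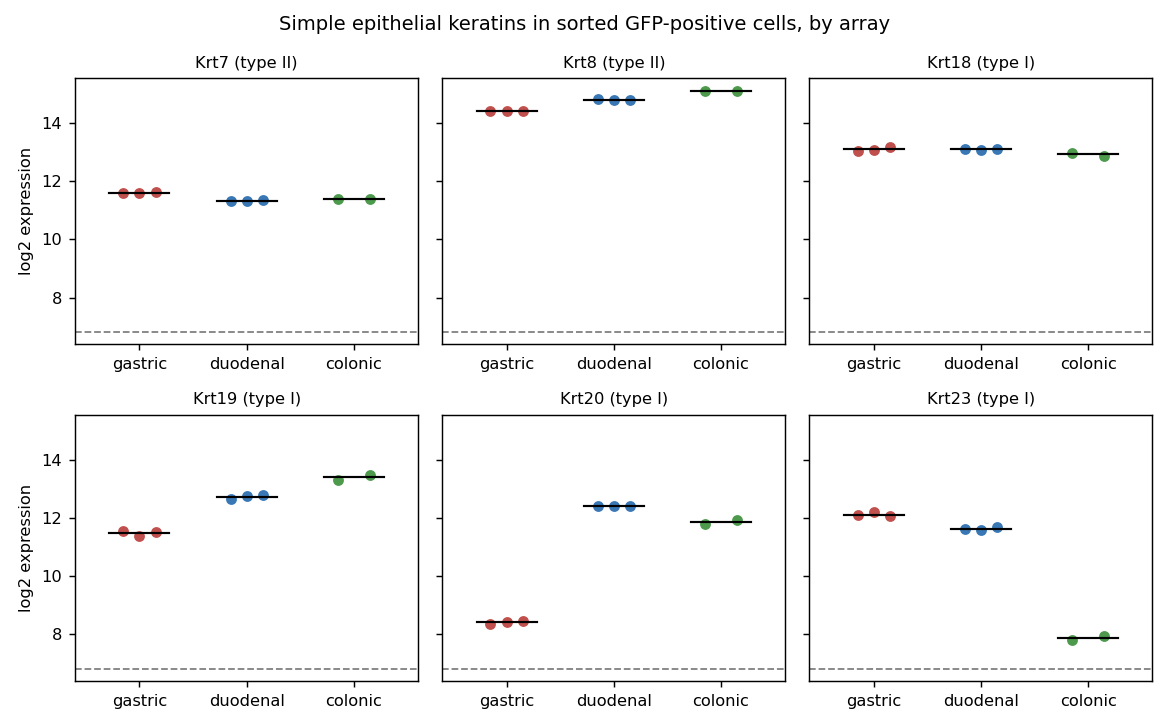
Values of the 6 keratins on the log2 scale (vertical axis) on each gastric, duodenal and colonic array (points), with the segment mean (black line) and the background reference of 6.81 (dashed line). Krt20 stands near 8.4 only in gastric arrays and Krt23 near 7.9 only in colonic arrays, while the other values lie at 11.4 or above, except 11.31 to 11.39 for some Krt7 arrays.

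Values were log2 expression values, 1 row per gene symbol. Arrays of a segment correlated across genes at r = 0.9974 to 0.9980 and arrays of different segments at 0.9011 to 0.9537, which describes likeness only, since genes are not independent replicates. Because no detection p-values came with the values, 1075 olfactory receptor rows were used as a background reference, whose median was 6.59 and whose 95th percentile was 6.81. All segment means of the 6 keratins lay above 6.81, and above the 99th percentile of 6.96. The highest value of the table was 15.49, so the differences of Krt8, at 14.41 to 15.13, may be compressed. Levels of different genes come from different probes and cannot be ranked against each other. Precision is limited by how few arrays there were, the colonic group being smallest. Nothing in the labels ties the arrays of a segment to separate animals, so that p-values rest on the array-to-array spread alone, and this spread may be technical.

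Differences were tested with limma over all 18131 rows at a Benjamini-Hochberg adjusted p under 0.05. In gastric against duodenal cells 5 of the 6 keratins passed, 2 higher and 3 lower in gastric cells, against 46.6% of all rows (22.7% higher, 23.9% lower) and 72.4% of the rows with a segment mean above background. In gastric against colonic cells 6 of 6 passed, 3 higher and 3 lower, against 44.1% of all rows (20.2% higher, 23.9% lower) and 68.9% of rows above background. In duodenal against colonic cells 5 of 6 passed, 3 higher and 2 lower in duodenal cells, against 34.2% of all rows (16% higher, 18.2% lower) and 53.7% of rows above background. Calls were thus common among all expressed genes, so that the counts are near this background. Differences of at least 2-fold were called for 2, 3 and 1 of the 6 keratins in these comparisons, against 7.77%, 7.41% and 3.56% of all rows. These shares include the rows under background, where none of the 6 keratins lay, so that the bases are unlike. The comparisons share arrays pairwise and are not independent of each other.

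**Figure D2:**
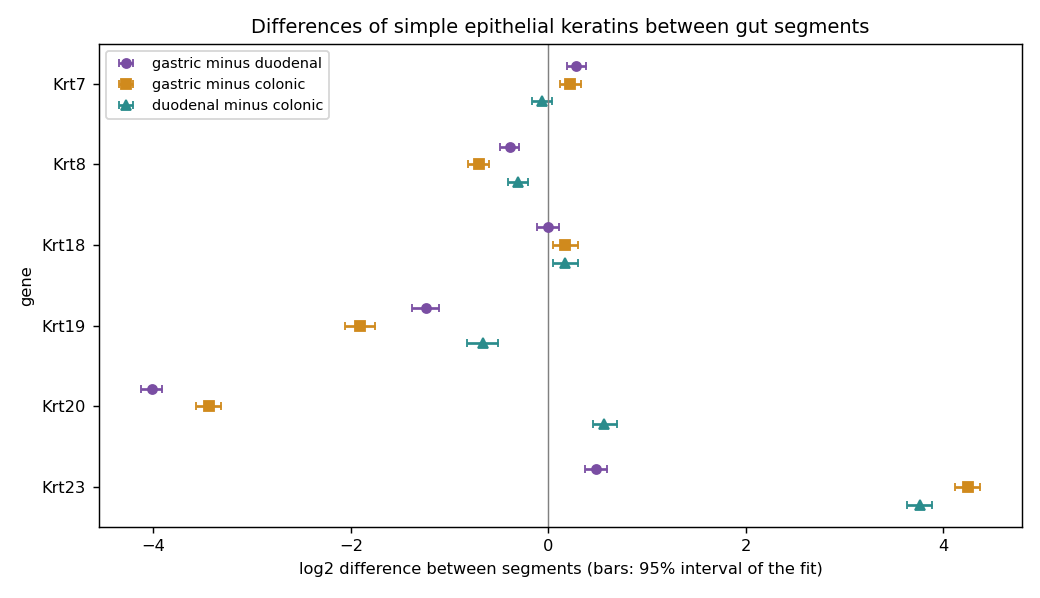
Log2 differences of the 6 keratins (rows) for the 3 pairs of segments, with 95% intervals of the fit (bars); values right of 0 are higher in the segment named first. Krt20 reaches -4.02 in gastric minus duodenal and Krt23 reaches 4.25 in gastric minus colonic cells, while every difference of Krt7 and Krt18 lies between -0.06 and 0.28.

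Of the type II keratins, Krt8 differed between all segments. Krt8 stood at 14.41 on each of the gastric arrays, at 14.84, 14.79 and 14.80 on the duodenal arrays and at 15.13 and 15.10 on the colonic arrays. The segments did not overlap, and the level was lowest in gastric and highest in colonic cells. Krt8 was 1.31-fold lower in gastric than in duodenal cells (log2 difference -0.39, SE 0.04, limma adjusted p = 1.69e-06). It was 1.63-fold lower in gastric than in colonic cells (-0.70, SE 0.05, adjusted p = 1.06e-08) and 1.24-fold lower in duodenal than in colonic cells (-0.31, SE 0.05, adjusted p = 0.000133).

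Krt7 varied little. It read 11.60, 11.61 and 11.64 on the gastric arrays, 11.34, 11.31 and 11.36 on the duodenal arrays and 11.39 and 11.40 on the colonic arrays. All gastric arrays lay above all others. Krt7 was 1.22-fold higher in gastric than in duodenal cells (log2 difference 0.28, SE 0.04, adjusted p = 5.75e-05) and 1.17-fold higher in gastric than in colonic cells (0.22, SE 0.05, adjusted p = 0.0015). Between duodenal and colonic cells the difference did not pass (-0.06, 95% interval -0.16 to 0.04, adjusted p = 0.404). By size these differences were ordinary, since the gastric against duodenal difference of Krt7 ranked 5655 of 18131 rows.

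Krt18, the type I partner of Krt8, was close to level along the gut. Its values were 13.04, 13.07 and 13.20 on the gastric arrays, 13.13, 13.07 and 13.10 on the duodenal arrays and 12.97 and 12.89 on the colonic arrays. Gastric and duodenal arrays overlapped, and both colonic arrays lay below them. Gastric and duodenal cells did not differ beyond the spread (95% interval of the log2 difference -0.11 to 0.11, limma adjusted p = 0.993). The colonic level was 1.13-fold below the gastric one (gastric minus colonic 0.17, SE 0.06, adjusted p = 0.0252) and 1.13-fold below the duodenal one (duodenal minus colonic 0.17, SE 0.06, adjusted p = 0.0318). Both calls were close to the threshold. The first was lost without gastric replicate 3 (adjusted p = 0.109) or colonic replicate 2 (adjusted p = 0.178). The second was lost without duodenal replicate 1 (adjusted p = 0.0862), duodenal replicate 3 (0.058), colonic replicate 1 (0.0531) or colonic replicate 2 (0.207).

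Krt8 and Krt18 therefore changed unequally, although their proteins pair with each other. The log2 value of Krt8 minus that of Krt18 on the same array was 1.37, 1.35 and 1.22 in gastric arrays, 1.70, 1.72 and 1.70 in duodenal arrays and 2.17 and 2.20 in colonic arrays. Its absolute size depends on the probes and only its change between segments is of use. The segment means were 1.31 ± 0.08 (SD, n = 3) in gastric, 1.71 ± 0.01 (SD, n = 3) in duodenal and 2.18 ± 0.02 (SD, n = 2) in colonic cells. The shift of Krt8 against Krt18 came to 1.31-fold between gastric and duodenal cells, 1.39-fold between duodenal and colonic cells and 1.83-fold between gastric and colonic cells. An exact permutation test over the 560 assignments of the 8 arrays to groups of 3, 3 and 2 gave p = 0.00357, the smallest that this design can give. A p at this floor cannot show how stable the shift is.

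Among the other type I keratins, Krt19 followed the order of Krt8 with larger steps. Krt19 read 11.56, 11.40 and 11.52 on the gastric arrays, 12.65, 12.75 and 12.81 on the duodenal arrays and 13.31 and 13.50 on the colonic arrays. The 3 segments were fully separated. It was 2.37-fold lower in gastric than in duodenal cells (log2 difference -1.24, SE 0.06, adjusted p = 2.37e-10), 3.76-fold lower in gastric than in colonic cells (-1.91, SE 0.07, adjusted p = 6.88e-12) and 1.59-fold lower in duodenal than in colonic cells (-0.66, SE 0.07, adjusted p = 2.58e-06). By size, 97.4% of all rows differed less between gastric and colonic cells.

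Krt20 separated gastric cells from both intestinal segments. Its values were 8.34, 8.43 and 8.46 on the gastric arrays, 12.43, 12.42 and 12.43 on the duodenal arrays and 11.78 and 11.93 on the colonic arrays. The gastric arrays were far below all others though above background, and the colonic arrays lay slightly below the duodenal ones. Krt20 was 16.2-fold lower in gastric than in duodenal cells (log2 difference -4.02, SE 0.05, adjusted p = 4.69e-17), the 46th largest difference of the 18131 rows. It was 10.9-fold lower in gastric than in colonic cells (-3.44, SE 0.06, adjusted p = 7.78e-16), at rank 126. Duodenal cells had 1.49-fold more than colonic cells (0.57, SE 0.06, adjusted p = 1.5e-06), so that Krt20, unlike Krt19 and Krt8, was highest in the duodenum.

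Krt23, the direct neighbour of Krt20 among the protein-coding genes of chromosome 11, ran the other way in both gastric comparisons and, like Krt20, was higher in duodenal than in colonic cells. It read 12.09, 12.20 and 12.08 on the gastric arrays, 11.64, 11.60 and 11.68 on the duodenal arrays and 7.81 and 7.93 on the colonic arrays. Only the colonic arrays were low. Krt23 was 19-fold higher in gastric than in colonic cells (log2 difference 4.25, SE 0.06, adjusted p = 7.79e-17), at rank 71 of all rows by size. It was 13.6-fold higher in duodenal than in colonic cells (3.77, SE 0.06, adjusted p = 7.21e-16), at rank 37. Between gastric and duodenal cells it was 1.4-fold higher in gastric cells (0.48, SE 0.05, adjusted p = 1.43e-06).

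The promoters of these neighbours are shown because Krt20 and Krt23 had the largest differences of the 6 keratins, in opposite directions against gastric cells and in the same direction between duodenal and colonic cells. The sequences are the 250 bases before each RefSeq start in GRCm38.p6, 5′ to 3′ on the gene's strand. Capitals mark matches to TTTAT, the core of sites bound by Cdx factors, and to the TATA box TATAAA, on either strand.
Krt20, chr11:99438154-99438403, minus strand: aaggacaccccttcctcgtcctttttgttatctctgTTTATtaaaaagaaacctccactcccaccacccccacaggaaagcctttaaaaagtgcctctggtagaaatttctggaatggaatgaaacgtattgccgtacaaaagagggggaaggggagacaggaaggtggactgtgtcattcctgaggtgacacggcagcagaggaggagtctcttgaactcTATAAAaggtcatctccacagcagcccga
Krt23, chr11:99493121-99493370, minus strand: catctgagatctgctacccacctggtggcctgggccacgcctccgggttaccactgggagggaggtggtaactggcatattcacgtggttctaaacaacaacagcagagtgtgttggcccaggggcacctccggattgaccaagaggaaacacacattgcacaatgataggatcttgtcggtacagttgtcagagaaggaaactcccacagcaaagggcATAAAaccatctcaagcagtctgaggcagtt
Krt20 held TTTAT in sense orientation at 214 to 210 bases before the start. Its second match, in antisense orientation at 28 to 24 bases, lies within the TATA box TATAAA at 29 to 24 bases and is not separate from it. Krt23 held TTTAT only in antisense orientation, at 31 to 27 bases before its start, and no TATAAA. Over 32851 mouse promoter windows of the same length, 37.3% held TTTAT and 12.4% held TATAAA on either strand, so that neither match is rare. The windows of Krt8 and Krt18 held neither motif, and that of Krt7 held TTTAT in antisense orientation at 7 to 3 bases. For the GC box GGGCGG, present in 32.7% of windows, Krt7 had 4 matches, and the windows of Krt8, Krt18, Krt20 and Krt23 had none. These matches describe the letters of the windows only. Krt19 was not examined here.

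Other genes with the profile of each keratin were sought among 11047 rows above background in a segment, by the root mean square difference of centred log2 values over the 8 arrays. The distances describe likeness over 3 segments and say nothing about control. For Krt20 the nearest were the row ABP1 (0.128), Amn (0.140), which encodes amnionless, part of the receptor for the intrinsic factor and vitamin B12 complex, and Clca4b (0.156). Amn stood at 7.12 in gastric, 11.03 in duodenal and 10.23 in colonic cells. Nearest to Krt23 were Sst, the somatostatin gene (0.305), Dbp, a circadian transcription factor gene (0.328), and Clps, which encodes pancreatic colipase (0.377). Sst averaged 15.41 in gastric, 14.48 in duodenal and 10.40 in colonic cells, and its gastric value is near the top of the scale. Krt19 was closest to Ctrl (0.094), a chymotrypsin-like protease gene, Ceacam20 (0.110) and Pof1b (0.110), an actin-binding protein gene. Krt7, Krt8 and Krt18 had small profiles, and their nearest rows lay at smaller distances than those of Krt19, Krt20 and Krt23. The nearest were Phlda2 (0.019), Tfe3 (0.025) and Trappc1 (0.025) for Krt7, Mx2 (0.032), Vegfc (0.033) and H2ac4 (0.034) for Krt8, and Etfa (0.028), Mia2 (0.038) and Clpx (0.039) for Krt18. Mx2, Vegfc and H2ac4 averaged 6.81, 6.64 and 6.89 in gastric cells, near the background reference, while Krt8 lay near the top of the scale. Within the 6 keratins, Krt7 and Krt18 were closest (0.135), and Krt20 and Krt23 farthest apart (3.058).

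Few other keratins were measured above background. Of 40 further keratin rows, 12 had a segment mean above 6.81 and 6 above 7. Krt10, a type I keratin of the differentiating epidermis, stood at 9.48 ± 0.03 (SD, n = 3) in gastric, 8.99 ± 0.05 (SD, n = 3) in duodenal and 8.60 ± 0.12 (SD, n = 2) in colonic cells, with all 3 differences called. Krt10 was 1.41-fold higher in gastric than in duodenal cells (adjusted p = 1.24e-06), 1.84-fold higher in gastric than in colonic cells (adjusted p = 7.89e-09) and 1.3-fold higher in duodenal than in colonic cells (adjusted p = 0.000108). Krt12, known as the type I keratin of corneal epithelium and the neighbour of Krt20 on its other side, was 2.99-fold lower in gastric than in duodenal cells (6.97 against 8.55, adjusted p = 4.24e-13) and 2.45-fold higher in duodenal than in colonic cells (8.55 against 7.26, adjusted p = 4.4e-11). Krt84, a type II hair keratin, stood at 7.39 in colonic cells and at background in the other segments, at least 1.5-fold lower in gastric than in colonic cells (adjusted p = 3.43e-07). Krt36 was at least 1.19-fold lower in gastric than in colonic cells (adjusted p = 2.57e-05), and Krt75 1.2-fold lower in gastric than in duodenal cells (adjusted p = 0.00069). In gastric against duodenal cells 4 of the 40 were higher and 3 lower, in gastric against colonic cells 3 were higher and 6 lower, and in duodenal against colonic cells 3 were higher and 5 lower, beside called shares of all rows of 46.6%, 44.1% and 34.2%. Their median differences were -0.02, -0.01 and 0.01, beside -0.01, -0.02 and -0.01 for all rows. Some of the calls among the 40 were on rows under background in both segments compared. A row near background may have a poor probe and says nothing certain about its transcript.

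**Figure D3:**
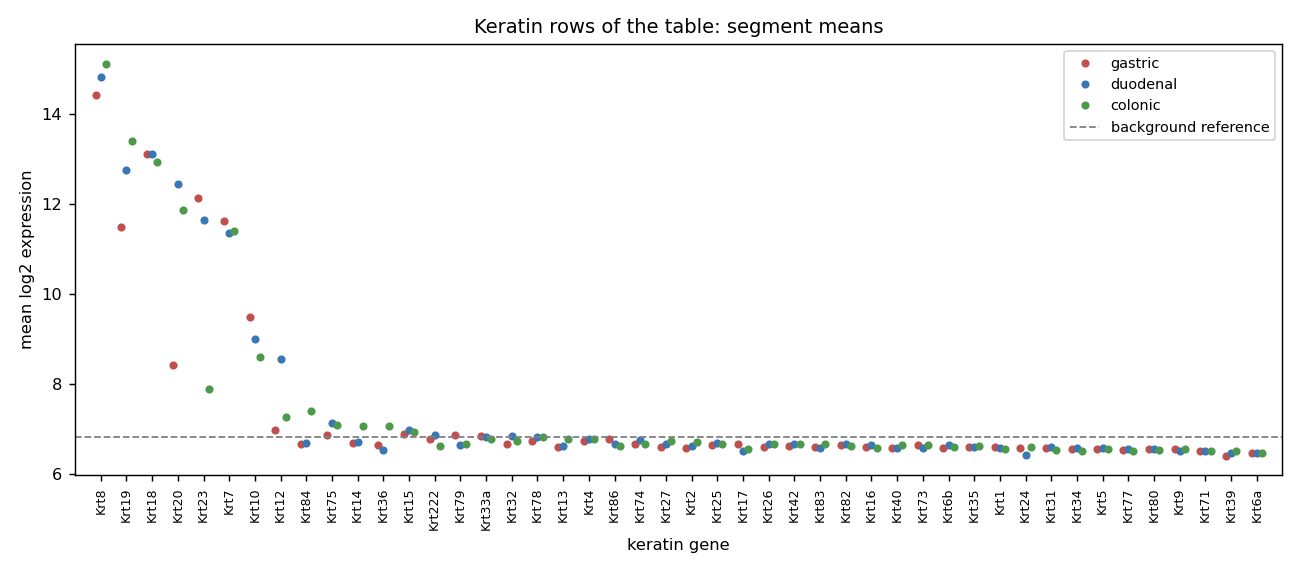
Segment means on the log2 scale (vertical axis) of all 46 keratin rows (horizontal axis), for gastric, duodenal and colonic cells, with the background reference of 6.81 (dashed line). Heights of different rows come from different probes and are not comparable, so the left-to-right order, by highest mean, ranks no gene above another; 12 of the 40 other keratin rows have a segment mean above the reference.

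Keratin filaments are anchored at desmosomes and hemidesmosomes by plakin proteins. Of 16 measured genes of this kind, 4 were higher and 9 lower in gastric than in duodenal cells (median log2 difference -0.14, beside -0.01 over all rows). Against colonic cells, 2 were higher and 7 lower in gastric cells (median -0.14, beside -0.02), and 7 were lower and none higher in duodenal than in colonic cells (median -0.05, beside -0.01). Of all rows above background, 72.4%, 68.9% and 53.7% were called in these comparisons, and Dsc2 and Dsc3, among the 9 lower in gastric than in duodenal cells, were under background in both segments. Pkp2, a plakophilin of the desmosomal plaque, was 2.47-fold lower in gastric than in duodenal cells (8.41 against 9.72, adjusted p = 3.41e-12) and 2.58-fold lower than in colonic cells (8.41 against 9.78, adjusted p = 8.99e-12). Pkp1, another plakophilin, was lower toward the stomach at each step, at 7.18 in gastric, 8.21 in duodenal and 8.77 in colonic cells (2.04-fold between gastric and duodenal cells, adjusted p = 3.07e-11, and 1.48-fold between duodenal and colonic cells, adjusted p = 2.99e-07). Dsp, which encodes desmoplakin, the protein that ties keratin to the plaque, was 1.81-fold higher in gastric than in duodenal cells (10.52 against 9.66, adjusted p = 6.83e-09) and 1.85-fold lower in duodenal than in colonic cells (9.66 against 10.55, adjusted p = 4.06e-08). Ppl, the periplakin gene, was 1.45-fold higher in gastric than in colonic cells (adjusted p = 1.37e-06), and Jup, the plakoglobin gene, at least 1.19-fold lower in duodenal than in colonic cells (adjusted p = 0.000209).

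Other intermediate filament and lamin genes went both ways. Of 14 measured, 4 were higher and 3 lower in gastric than in duodenal cells, 3 higher and 4 lower in gastric than in colonic cells, and 2 higher and 1 lower in duodenal than in colonic cells, with medians of -0.02, -0.03 and -0.01. The called shares of all rows in these comparisons were 46.6%, 44.1% and 34.2%. Nefm, a neurofilament gene, was 3.8-fold higher in gastric than in duodenal cells (8.90 against 6.97, adjusted p = 1.03e-12) and at least 4.15-fold higher than in colonic cells (adjusted p = 1.56e-12). Lmna, the gene of the nuclear lamins A and C, was 1.32-fold higher in gastric than in duodenal cells (adjusted p = 1.27e-06) and 1.99-fold lower in duodenal than in colonic cells (9.79 against 10.78, adjusted p = 3.15e-10). Vim, the vimentin gene of mesenchymal cells, passed in none of the comparisons, with means of 7.01 in gastric, 7.11 in duodenal and 7.02 in colonic cells.

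Genes for proteins that bind, phosphorylate or cleave keratins also went both ways. Of 15 measured, 3 were higher and 10 lower in gastric than in duodenal cells (median -0.20), 5 higher and 5 lower in gastric than in colonic cells (median 0.01), and 5 higher and 5 lower in duodenal than in colonic cells (median 0.10), beside called shares of 72.4%, 68.9% and 53.7% among rows above background and all-row medians of -0.01, -0.02 and -0.01. Casp6, which encodes a caspase that can cut Krt18 protein, was 3.44-fold higher in gastric than in colonic cells (11.27 against 9.49, adjusted p = 3.91e-13) and 3.94-fold higher in duodenal than in colonic cells (11.46 against 9.49, adjusted p = 2.79e-13). Sfn, which encodes a 14-3-3 protein of epithelia, was 1.73-fold lower in gastric than in duodenal cells (adjusted p = 3.24e-08) and 2.12-fold lower than in colonic cells (adjusted p = 3.63e-09).

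The listed genes of simple epithelial identity, which include the intestinal factors Cdx1 and Cdx2, were mostly lower in gastric cells. Of 15 measured, 10 were lower and 2 higher in gastric than in duodenal cells (median -0.60), 13 were lower and none higher in gastric than in colonic cells (median -0.55), and 7 were lower and 1 higher in duodenal than in colonic cells (median -0.11). Over all rows 23.9%, 23.9% and 18.2% were called lower in these comparisons, with medians of -0.01, -0.02 and -0.01. Of the rows above background, 72.4%, 68.9% and 53.7% were called in either direction. Ehf, counted among the genes lower than in colonic cells, was under background in all segments (6.48 in gastric, 6.48 in duodenal and 6.65 in colonic cells). Cdh1, the E-cadherin gene carried by all epithelial cells, did not pass in any comparison and read 12.00 in gastric, 11.99 in duodenal and 11.98 in colonic cells. The homeobox genes Cdx1 and Cdx2, regulators of intestinal fate, had the order of Krt8 and Krt19. Cdx1 was 6.91-fold lower in gastric than in duodenal cells (7.93 against 10.72, adjusted p = 3.85e-16) and 2.09-fold lower in duodenal than in colonic cells (10.72 against 11.78, adjusted p = 2.21e-10). Cdx2 was 6.01-fold and 2.31-fold lower in the same comparisons (adjusted p = 3.49e-15 and 2.29e-10). Cldn3, a tight junction gene, had the order gastric below duodenal and colonic cells that Krt20 showed, at 10.30 in gastric, 12.13 in duodenal and 12.23 in colonic cells (adjusted p = 2.11e-13 for gastric against duodenal and 0.182 for duodenal against colonic cells).

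**Figure D4:**
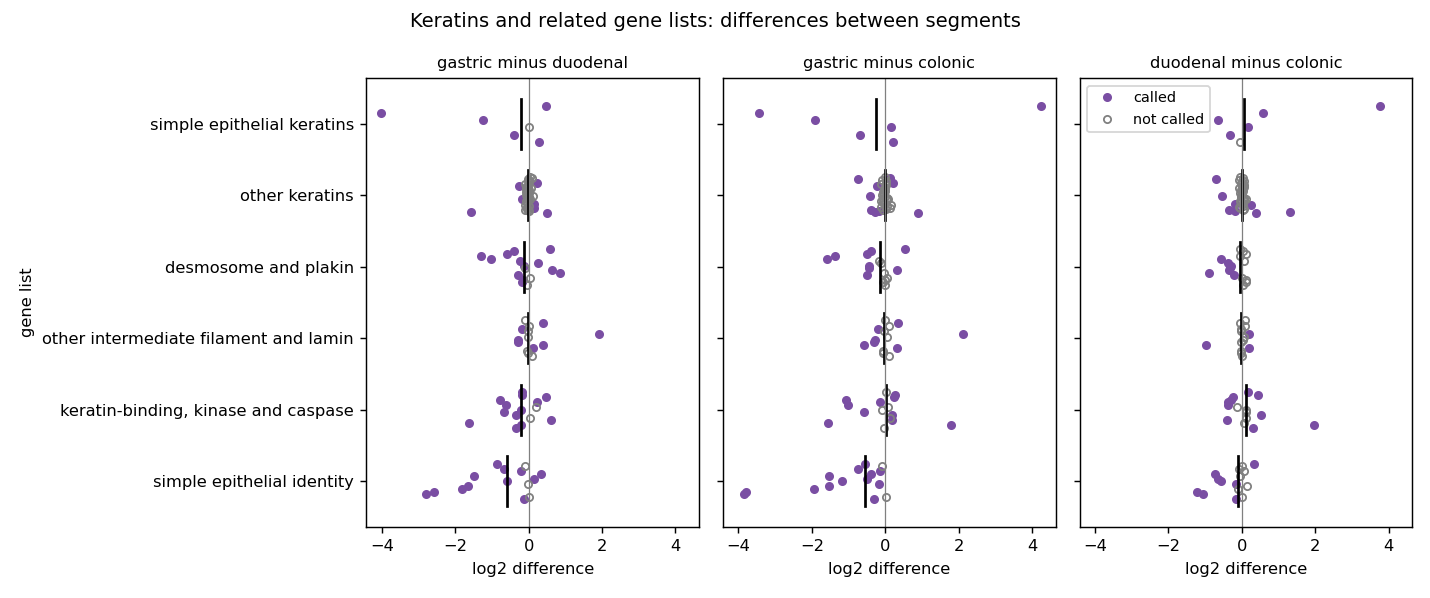
Log2 differences (horizontal axis) of each measured gene of 6 lists (rows) for the 3 pairs of segments, filled where limma called the gene and open where it did not, with the median of the list (black bar). The simple epithelial keratins hold the widest spread in gastric minus colonic cells, from -3.44 to 4.25, while the other keratins gather near 0.

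The sorted populations also differed in markers of the cell types they may hold, and several marker sums had the same order of segments as a keratin. An order of 3 segments is easily shared and says nothing about the size of a difference. In bulk samples fewer cells of a type and less RNA per cell cannot be told apart. The 9 endocrine markers summed to 44835 to 46649 on the linear scale in gastric, 8321 to 8792 in duodenal and 2794 to 2887 in colonic arrays, the same order of segments as Krt23. The defining marker Neurog3 stood at 13.03, 9.74 and 8.73 in gastric, duodenal and colonic cells, while the row of the endocrine factor Pax6 was under background in all 3. Tuft cell markers (7 genes) summed to 3031 to 3176 in gastric, 3243 to 3364 in duodenal and 840 to 852 in colonic arrays, so that they were low where Krt23 was low, with 6 of 7 called higher in both gastric and duodenal than in colonic cells. The tuft cell factor Pou2f3 was under background in all segments. Gastric mucous markers (6 genes) had the order of Krt23 too, at 142228 to 144848 in gastric, 6895 to 6955 in duodenal and 704 to 727 in colonic arrays. The part of these cells in the level of Krt23 was not tested.

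Enterocyte markers (8 genes) summed to 4355 to 4458 in gastric, 39455 to 39785 in duodenal and 2527 to 2615 in colonic arrays. The sum was highest in the duodenum, as was Krt20, and the genes differed between gastric and colonic cells. Of the 8, 4 were called higher in gastric than in colonic cells (20.2% of all rows). These were Apoa1 (5.72-fold), Anpep (4.09-fold), Rbp2 (1.31-fold) and Apoa4 (at least 1.18-fold). Another 2 were called lower (23.9% of all rows), as was Krt20, namely Sis (7.47-fold, adjusted p = 1.74e-15) and Mttp (1.47-fold, adjusted p = 2.18e-06). The enterocyte rows Fabp1 and Fabp2 were under background in every segment. Colonocyte markers (6 genes) summed to 1442 to 1501 in gastric, 2228 to 2302 in duodenal and 4794 to 5028 in colonic arrays, the order of Krt8 and Krt19. Of the 6, 5 were called lower in gastric than in duodenal and in colonic cells (23.9% of all rows in each). Between duodenal and colonic cells 3 were called lower in duodenal cells (18.2% of all rows) and 3 were not called. Leukocyte markers (8 genes) summed to 1156 to 1213 in gastric, 2136 to 2155 in duodenal and 8565 to 8773 in colonic arrays. The colonic sum came from Cd74, an antigen presentation gene, and the other 7 were under background there. The T cell genes Cd3e and Cd3g were above background in duodenal cells alone. Cd3g was at least 4.1-fold higher there than in colonic cells (adjusted p = 3.07e-12). Of the 8, 4 were called higher and 1 lower in duodenal than in colonic cells, beside 16% and 18.2% of all rows. Of these 4, Lyz2 and Ptprc were under background in both segments. Ptprc, the marker of all leukocytes, was under background in all segments. Goblet markers (5 genes) summed to 54854 to 57635 in gastric, 75991 to 76862 in duodenal and 64304 to 66216 in colonic arrays. Paneth markers (5 genes) reached 10602 to 11029 in gastric, 53198 to 56787 in duodenal and 41036 to 41311 in colonic arrays. Chief and parietal markers (6 genes) stood at 71490 to 72636, 1637 to 1667 and 822 to 840, and stem and progenitor markers (5 genes) at 2154 to 2268, 4761 to 4803 and 3369 to 3541, in gastric, duodenal and colonic arrays. The goblet, Paneth and stem sums had the order of Krt20, and the chief and parietal sum that of Krt23. Single genes went both ways in duodenal against colonic cells, where 16% of all rows were called higher and 18.2% lower. Of the markers, 1 goblet gene was called higher and 2 lower, and 3 Paneth genes higher and 1 lower. In the same comparison 2 stem genes were higher and 3 lower, and 3 chief and parietal genes higher and 1 lower. The part of these cells in the levels of Krt8, Krt19, Krt20 and Krt23 was not tested.

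Of the squamous markers, 8 of 12 were under background in gastric, 9 in duodenal and 7 in colonic cells. The basal squamous keratins Krt5 and Krt14 and the factor Trp63 were under background in gastric and duodenal cells, and in colonic cells Krt14 alone of these was above it, at 7.06, with an adjusted p of 0.000143 for gastric against colonic cells. Above background in at least 1 segment were, beside Krt10, the keratin Krt15 and the cornified envelope genes Lor and Sprr1a. Krt15 stood at 6.88 in gastric, 6.96 in duodenal and 6.93 in colonic cells and passed in none of the comparisons. Lor stood at 7.86 in gastric cells, at least 2.08-fold higher than in duodenal cells (adjusted p = 4.1e-11). Sprr1a was 1.52-fold lower in gastric than in duodenal cells (adjusted p = 3.49e-06). The 12 squamous markers summed to 1959 to 1994 in gastric, 1697 to 1717 in duodenal and 1611 to 1615 in colonic arrays. The 10 stromal, endothelial and mesothelial markers summed to 1060 to 1071 in gastric, 1051 to 1079 in duodenal and 1052 to 1082 in colonic arrays, and 7, 7 and 8 of them were under background.

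**Figure D5:**
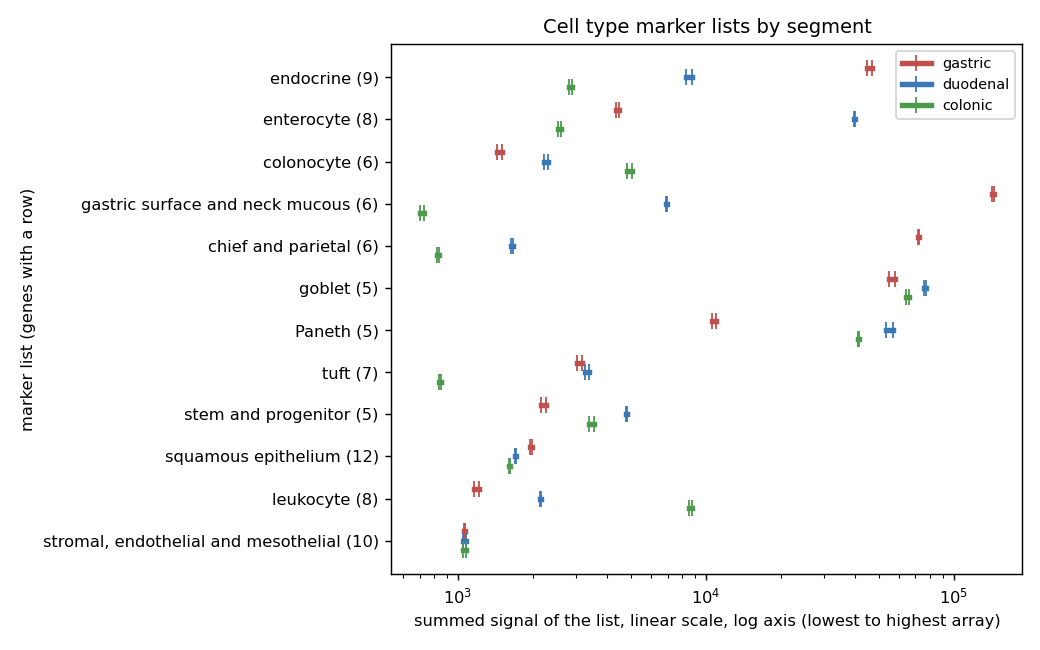
Summed signal of each marker list on a linear scale, drawn on a log axis (horizontal), from the lowest to the highest array of gastric, duodenal and colonic cells (bars); the number of measured genes stands beside each list. Endocrine markers reach 46649 in a gastric array, against 2794 in the lowest colonic array, and stromal markers stay between 1051 and 1082.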

How the data were processed

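The authors deposited a table of 18131 gene symbols by 8 arrays, read here as log2 values. Their range of 6.22 to 15.49 is that of log2 array intensities, the only basis for this scale, since no source names it. Per the submitters' processing notes, GenomeStudio, lumi and limma were used, with no version or role stated. No source used here says how probes were joined per gene. The sorted columns agreed to within 0.0043, as after quantile normalization by the authors, so that equal values on different arrays can occur.

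Groups came from the sample titles. Segment means were fitted jointly, with no covariate, by lmFit and eBayes (limma 3.58.1, R 4.3.3), and p-values were Benjamini-Hochberg adjusted over all 18131 rows. Krt8 minus Krt18 was tested by exact permutation. The fit was tested on simulated data. Array data have no counting depth.

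The background reference was the 95th percentile of the olfactory receptor rows. Where the dim group's mean lay under it, folds are given as "at least", against the higher of 6.81 and each array's own value. Row names were matched to symbols through the GRCm38.p6 annotation, older symbols included (147 of 170 list entries had a row). Promoter windows came from RefSeq.

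The members and lists were chosen with earlier results of these data known. Named were the 6 members, up to 3 called genes without overlapping arrays and with the largest difference per list and comparison, from which the text takes examples (1 gene that the rule names is not reported here), and the 3 nearest profiles per member. Defining markers of cell types are named where needed, and Vim, Cdh1, Mttp, Dsc2, Dsc3, Ehf and Krt15 were picked after their values were seen. As alternatives, the normalization (repeated quantile, or centring on medians), the dim-row filter, the variance model, the arrays in the fit, their weights, a block for replicate number and a 2-fold limit were varied, and each array was left out. Other steps ran in Python 3.11.15 (numpy 2.4.6, pandas 2.3.3, matplotlib 3.10.9).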

Additional observations from a re-analysis of the deposited data

How the results depend on the processing

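Of 270 values of the 18 keratin differences under 15 alternatives each, 258 kept their direction and their side of the threshold, and all 12 others were of Krt18. Its uncalled gastric minus duodenal difference turned sign with array weights (0.00) and without gastric replicate 1 (0.03), gastric replicate 2 (0.02) or duodenal replicate 1 (0.01). With 1 array left out it was -0.05 to 0.03. Its calls against colonic cells were lost without the arrays named above. Same-numbered arrays of different segments did not deviate together (r = -0.01 to 0.01), so the numbers do not pair the arrays. With the replicate block, Krt18 was not called in gastric minus colonic (0.15, adjusted p = 0.0683) or duodenal minus colonic cells (0.15, adjusted p = 0.0833), and 8418, 7830 and 5941 rows were called in gastric minus duodenal, gastric minus colonic and duodenal minus colonic cells, against 8446, 7993 and 6203 without it. With a 2-fold limit, 1408, 1344 and 645 rows and 2, 3 and 1 of the keratins were called in these comparisons. The cause of these changes was not tested, except that the 2-fold limit removes small differences by construction. No segment mean of the 6 keratins lay under either background reference, so that no bounds were needed for them.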
